A study of Mus musculus with 2 samples.

Results

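The 37 genes described here act late in the cell cycle, in G2 and mitosis. They were taken as a fixed list by gene symbol, and all 37 were found among the 32285 genes listed in both libraries. The rule used no measured value, but the list was chosen with earlier results of these data known. By role, the list holds 6 cyclin and CDK1 control genes, 5 mitotic kinases, 5 genes listed together as passenger complex, APC/C and related mitotic regulators, 5 centromere and kinetochore genes, 10 spindle and cytokinesis genes and 6 genes of chromosome or nuclear structure. Single-cell transcripts were counted in lineage-negative, c-Kit-positive fetal liver cells of C57BL/6 mouse embryos at E14.5. One library came from CD45.2(+) Vav1-iCre Brd9fl/fl embryos, called the Brd9 knockout, and 1 from CD45.2(+) Brd9fl/fl embryos, called the control. Both groups carry the floxed Brd9 alleles, and the groups differ by the label in Vav1-iCre, a recombinase driven by a promoter active in blood-forming cells. No library of embryos with Vav1-iCre and intact Brd9 was part of the comparison, so the recombinase and the loss of Brd9 cannot be told apart. Each library held cells of both sexes and hence of more than 1 embryo, and how many embryos were pooled is not stated in the labels.

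Entry into mitosis is driven by CDK1 bound to B-type cyclins, which the phosphatase CDC25C activates. Polo-like and Aurora kinases then build the spindle, the kinetochore checkpoint holds anaphase back, and the APC/C ends mitosis by marking cyclins and securin for destruction. Transcripts of these genes build up from late S phase to mitosis through transcription factors that include NF-Y, B-MYB and FOXM1, so their summed level in a tissue is widely read as a sign of how many cells are cycling. Erythroid progenitors of the fetal liver are a rapidly dividing population, whereas stem cells divide less often. BRD9 is a bromodomain protein that belongs to the non-canonical form of the BAF chromatin remodeller.

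The libraries gave 6757 knockout and 6860 control cells after filtering, with a median of 36007 and 38485.5 UMIs (unique transcript counts) per cell. Levels are CPM, the UMIs of a gene per 1000000 UMIs of the cells summed. Brd9 was at 7.06 against 27.2 CPM in knockout and control, a log2 ratio of -1.95 (95% interval -2.02 to -1.87). There was 1 library per genotype, so no test between genotypes was possible and no p-value is given. Intervals cover counting error only and leave out differences between embryos, sorts and libraries. Kit, the sorting marker, was at 63.8 and 67.0 CPM, Cd3e had no UMI in either library, and Ly6g stayed under 0.03 CPM. Of 10 hepatocyte markers, 4 were under 1 CPM in both libraries, and their summed level was 21.5 against 46.3 CPM in knockout and control. The summed levels of 12 macrophage, 8 endothelial and 9 stromal markers were 29.9, 107 and 4.63 CPM in the knockout, against 37.3, 114 and 3.0 CPM in the control. Of these markers, 8, 4 and 8 were under 1 CPM in both libraries. Single genes made up most of 2 sums: Slc40a1 (macrophage) at 23.5 and 30.5 CPM and Egfl7 (endothelial) at 90.6 and 95.5 CPM in knockout and control. The libraries shared 16 barcodes. By Xist and Y-linked UMIs, 58.9% of knockout and 23.0% of control cells were female.

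Cell cycle promoters are known for CCAAT boxes, bound by NF-Y, and for the CHR element, bound by MuvB complexes, and the stretches below show how these letters lie upstream of genes that the results return to. Promoter windows of 300 bases, 250 before and 50 after the transcription start, came from the RefSeq table of build GRCm38.p6, which held 32 of the 37 genes. CCAAT and the CHR letters TTTGAA were searched on both strands, and in 1 of 34 windows a match of one shared a base with a match of the other. CCAAT was found in 26 of the 32 genes (81.25%), against 41.06% of all 27025 genes in the table and 42.78% of the 4948 genes with a mean level of at least 20 CPM. TTTGAA was found in 23 (71.88%), against 20.23% and 14.96%. Both were found in 20 (62.5%), against 7.97% and 6.47%. A match of letters is a description and not a binding site.

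The stretches are the 120 bases before the start, 5′ to 3′ on the gene's strand, with matches of CCAAT or TTTGAA on either strand in capitals.
Top2a (chr11:99024190-99024309, minus strand): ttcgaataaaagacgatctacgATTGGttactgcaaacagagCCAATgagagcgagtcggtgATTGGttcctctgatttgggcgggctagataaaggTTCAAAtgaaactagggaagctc
Ube2c (chr2:164769809-164769928, plus strand): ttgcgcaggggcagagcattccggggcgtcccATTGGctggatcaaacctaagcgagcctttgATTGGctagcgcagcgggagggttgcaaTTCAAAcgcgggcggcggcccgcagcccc
Cdk1 (chr10:69352913-69353032, minus strand): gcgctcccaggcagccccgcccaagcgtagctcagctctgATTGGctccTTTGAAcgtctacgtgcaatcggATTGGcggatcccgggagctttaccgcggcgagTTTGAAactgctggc
Kif11 (chr19:37376262-37376381, plus strand): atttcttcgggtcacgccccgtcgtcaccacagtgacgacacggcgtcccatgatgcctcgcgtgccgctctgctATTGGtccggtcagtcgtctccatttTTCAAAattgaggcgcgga
Ccnb1 (chr13:100786487-100786606, minus strand): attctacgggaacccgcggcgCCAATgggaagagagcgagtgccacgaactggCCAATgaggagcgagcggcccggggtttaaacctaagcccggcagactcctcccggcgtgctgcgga
Hmgb2 (chr8:57511723-57511842, plus strand): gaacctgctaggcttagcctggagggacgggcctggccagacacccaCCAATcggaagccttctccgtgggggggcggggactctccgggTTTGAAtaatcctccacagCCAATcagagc
Nusap1 (chr2:119618178-119618297, plus strand): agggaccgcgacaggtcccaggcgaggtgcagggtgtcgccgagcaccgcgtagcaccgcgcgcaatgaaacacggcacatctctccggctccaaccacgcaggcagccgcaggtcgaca
In these stretches, TTTGAA began 23 bases before the start in Top2a, 29 in Ube2c, 19 in Kif11 and 30 in Hmgb2. In Cdk1 it began 71 and 15 bases before the start. Ccnb1 held 2 CCAAT matches and no TTTGAA there, and the Nusap1 window held neither. Most of the 23 genes with TTTGAA held it only elsewhere in their window, so these positions are not typical of the list.

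Over all kept cells, the genes were at nearly the same level in both libraries. Their summed level was 8459 against 8559 CPM in knockout and control, a log2 ratio of -0.017 (-0.020 to -0.014). Hmgb2, the gene at the highest level, was lower in the knockout by more CPM than the sum was. The sign of the summed ratio thus rests on that gene. Of the 37 genes, 20 had a log2 ratio above 0 and 17 below, and 0 lay beyond 0.25 in either direction. Among the 6124 genes with a mean of at least 20 CPM, 65.2% were above 0 and 4.05% beyond 0.25. The median log2 ratio was 0.00064 for the 37 genes and 0.027 for all those genes. All but Gtse1 and Cdc25c, at 13.5 and 17.1 CPM in the knockout, reached the mean of 20 CPM.

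Of the cyclin and CDK1 control genes, 5 of 6 had a ratio above 0, against 65.2% of all genes. Cdk1, the kinase that starts mitosis, was at 171 against 167 CPM in knockout and control. Ccnb1, its cyclin B1 partner, was at 168 and 158 CPM, a log2 ratio of 0.089 (0.070 to 0.108), and Ccnb2, cyclin B2, was at 136 and 131 CPM, a ratio of 0.053 (0.032 to 0.075). Ccna2, cyclin A2, which acts in S phase and G2, was at 182 and 178 CPM. Cks2, the CDK-binding subunit, was at 612 and 615 CPM, a ratio of -0.007 (-0.017 to 0.003). Cdc25c, the phosphatase that activates CDK1, was at 17.1 and 16.1 CPM, a ratio of 0.090 (0.029 to 0.151) over 4359 and 4419 UMIs. The group was thus shifted by at most 0.09 on the log2 scale.

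Of the mitotic kinases, 4 of 5 had a ratio above 0, against 65.2% of all genes. Plk1, the polo-like kinase of mitotic entry, was at 86.5 against 83.6 CPM in knockout and control, and Aurka, the centrosomal Aurora kinase, at 83.5 and 85 CPM. Aurkb, the kinase of the chromosomal passenger complex, was at 74.4 and 72.6 CPM. The checkpoint kinases Bub1 and Ttk were at 61.7 and 35.8 CPM in knockout and at 61.3 and 35.1 CPM in the control. In the group of passenger complex, APC/C and related genes, 1 of 5 was above 0, against the same share. That gene was Birc5, survivin, at 349 and 341 CPM. Cdca8, borealin, was at 228 and 233 CPM. Cdc20, the mitotic activator of the APC/C, was at 158 and 162 CPM, a ratio of -0.039 (-0.059 to -0.020). Ube2c, its ubiquitin-conjugating enzyme, was at 329 and 331 CPM and Cdca3, a substrate of the APC/C, at 138 and 141 CPM.

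Centromere and kinetochore genes held the 2 lowest ratios of the list. Cenpa, the histone H3 variant that marks centromeres, was at 189 against 204 CPM in knockout and control, a ratio of -0.11 (-0.13 to -0.096). Nuf2, of the NDC80 complex that binds microtubules, was at 31.5 and 33.7 CPM, a ratio of -0.098 (-0.14 to -0.054). Ndc80, its partner, lay on the other side of 0, at 45.5 and 43.9 CPM (0.052, 0.015 to 0.089). Cenpe, the kinetochore motor, was at 133 and 137 CPM, a ratio of -0.040 (-0.061 to -0.018), and Cenpf, a kinetochore protein, was at 149 and 148 CPM.

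Among 10 spindle and cytokinesis genes, 6 were above 0, against 65.2% of all genes. Ckap2, a spindle-associated protein, had the highest ratio of the list, 0.13 (0.090 to 0.18), at 33.5 against 30.5 CPM in knockout and control. Kif23, a motor of the central spindle, was at 55.2 and 53.1 CPM, a ratio of 0.059 (0.025 to 0.092). Hmmr, a spindle assembly factor, was at 177 and 184 CPM, a ratio of -0.052 (-0.071 to -0.034). Tubb4b, a beta-tubulin, was at 816 CPM in both. The other 6, Tpx2, Nusap1, Tacc3, Kif11, Kif20b and Gtse1, had ratios from -0.020 (Kif11) to 0.048 (Kif20b). In the chromosome and nuclear group, 2 of 6 were above 0, against the same share. Hmgb2, a chromatin-bending protein, was at 1697 and 1806 CPM, a ratio of -0.089 (-0.095 to -0.084). Mki67, the coat protein of mitotic chromosomes, was at 428 and 412 CPM, a ratio of 0.054 (0.042 to 0.066). Top2a, the enzyme that untangles sister chromatids, was at 438 and 440 CPM. Smc4 (condensin), Anp32e (a histone chaperone) and Tmpo (a nuclear lamina protein) had ratios of -0.007, 0.001 and -0.033.

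**Figure D1:**
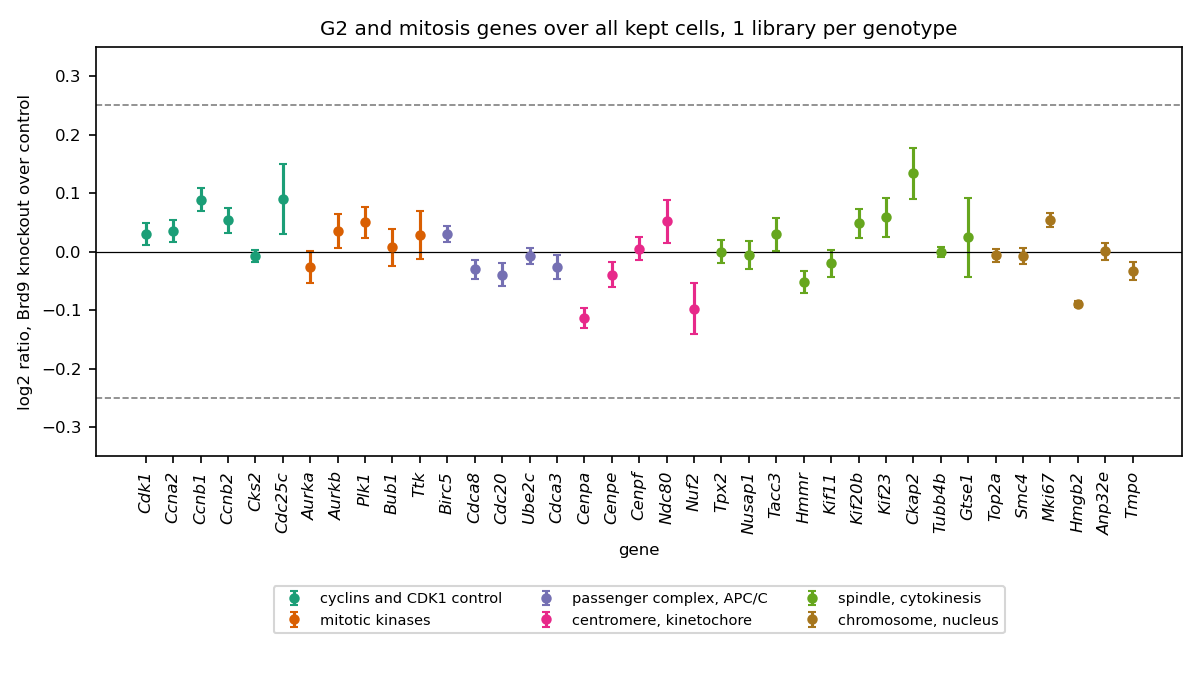
Log2 ratio of knockout over control for each of the 37 genes (x axis, in order of role) over all kept cells, with 95% counting intervals as bars and dashed lines at 0.25 on either side of 0. Every gene lies between -0.11 (Cenpa) and 0.13 (Ckap2).

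On 6 lists of further mitotic genes, 0 genes with a mean of at least 20 CPM lay beyond 0.25, against 4.05% of all genes at that level. Of all those genes, 65.2% were above 0. Genes above 0 were 20 of 30 on the checkpoint and APC/C list, 19 of 27 on the spindle and cytokinesis list, 14 of 27 on the kinetochore list, 9 of 14 on the entry kinase list, 8 of 13 on the FOXM1 and MuvB list and 3 of 7 on the condensin list. Among genes at that level, the farthest from 0 was E2f8, a repressor of cell cycle genes, at 42.1 against 37.3 CPM in knockout and control (0.18, 0.14 to 0.22). Below that level, E2f5, a repressor of the same family that was chosen after its value was seen, was at 18.1 and 15.1 CPM (0.26, 0.20 to 0.32). On the other lists the farthest were Cenpm, a centromere protein, at -0.16, Anapc15, an APC/C subunit, at 0.15, Plk4, the kinase of centriole duplication, at 0.15, Kif14, a cytokinesis motor, at 0.13, and Ncapg2, a condensin subunit, at -0.048. For 41 S-phase genes the median ratio was 0.0065, with 22 above 0, against the same 65.2%.

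Levels of the 37 genes differed far more between cell classes than between genotypes. Classes were rebuilt by clustering without the cell cycle genes and named from marker genes, and each name stands for cells like that type. They were erythroid-like cells (4393 knockout and 4526 control), MEP-like (megakaryocyte-erythroid progenitor, 995 and 733), GMP-like (granulocyte-monocyte progenitor, 342 and 481), HSC/MPP-like (stem cell and multipotent progenitor, 385 and 390) and mast/basophil-like cells (273 and 180). A further cluster of 233 and 344 cells, led by Hdac9, Lsp1, Tox and Irf8, held 2 monocyte markers and 2 markers of other classes among its top 10 genes, and is called the Irf8 cluster. One MEP-like cluster had 1 marker of its own class and 1 of another there. Erythroid-like clusters 1, 2, 14, 15 and 17 had no marker of any class among their top 10 genes. They were named by the share of erythroid markers detected, 89.3 to 92.9%.

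Among the 6 classes compared, the summed level was highest in erythroid-like cells, at 8822 against 9105 CPM in knockout and control. MEP-like cells followed at 8021 and 8042 CPM, and mast/basophil-like cells at 7528 and 7512 CPM. The Irf8 cluster stood at 7239 and 6762 CPM and GMP-like cells at 7039 and 6489 CPM. HSC/MPP-like cells were lowest, at 6413 and 6059 CPM. The order of these 6 classes was the same in both libraries. The values of the Irf8 cluster and GMP-like cells overlapped between the libraries, so that pair could not be ordered beyond the difference between libraries, and the other neighbours did not overlap. Megakaryocyte-like cells, 82 and 63 in number, were too few to be ranked and stood at 8830 and 7985 CPM. In the knockout they were thus level with erythroid-like cells.

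**Figure D2:**
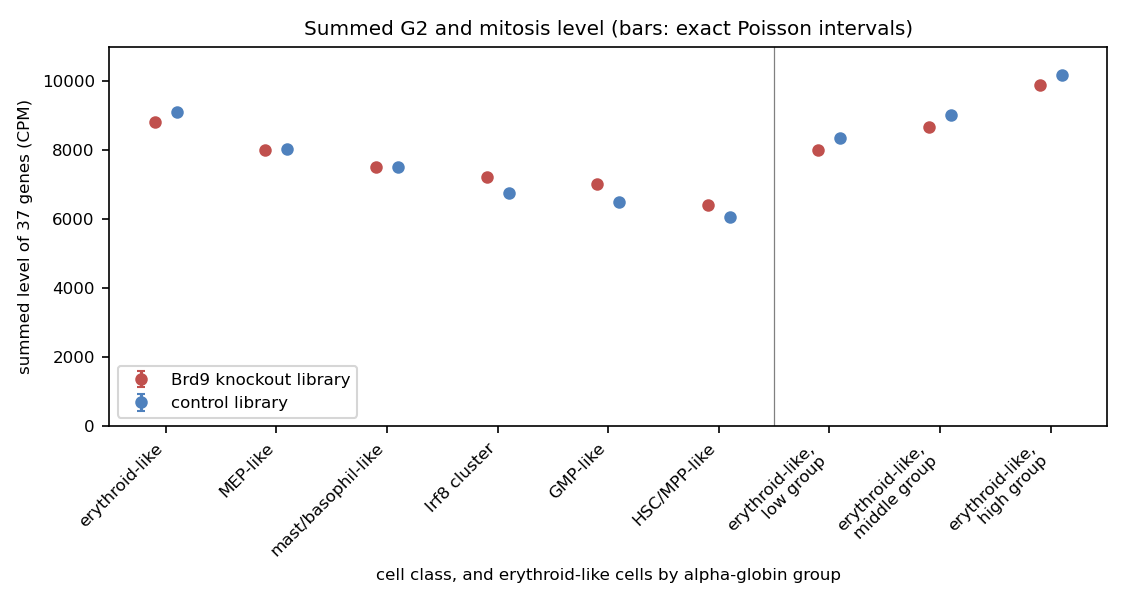
Summed level of the 37 genes in CPM (y axis, from 0) by cell class and by alpha-globin group of erythroid-like cells (x axis), 1 point per library, with exact Poisson intervals as bars that are mostly smaller than the points. The level runs from 6059 CPM in control HSC/MPP-like cells to 10192 CPM in the control's high alpha-globin group.

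Single genes did not share this order. Of the 37 genes, 18 were highest in erythroid-like cells in both libraries, against 32.8% of genes with a mean of at least 20 CPM, and 14 were lowest in HSC/MPP-like cells in both, against 7.94%. Ccna2 spanned the widest range, from 77.0 CPM in control HSC/MPP-like cells to 206 CPM in control erythroid-like cells, and from 83.8 to 207 CPM in the knockout. Those are 2.68 and 2.47 times. Hmmr spanned 81.9 to 213 CPM in the control and 88.4 to 201 CPM in the knockout, between the same classes. Mki67, the usual proliferation marker, spanned 188 to 474 CPM in the control and 210 to 478 CPM in the knockout, again from HSC/MPP-like to erythroid-like cells.

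Cdk1 stood at the other end. It was at 165 CPM in control erythroid-like cells, its lowest class, and at 179 CPM in the Irf8 cluster, its highest, a span of 1.09 times. In the knockout its span was 1.12 times, from 167 CPM in erythroid-like to 187 CPM in GMP-like cells. Ccnb1 and its kinase Cdk1 thus differed in spread: Ccnb1 had spans of 2.21 and 1.90 times in control and knockout and Cdk1 almost none. Ccnb2, the other B-type cyclin, had spans of 1.43 and 1.38 times, near the median of the 37 genes. Kif23 was highest in the Irf8 cluster in both libraries, at 82.2 against 66.3 CPM in knockout and control, against lowest values of 38.2 CPM in knockout GMP-like and 33.3 CPM in control MEP-like cells. Ckap2 was highest in HSC/MPP-like cells in both, at 37.5 and 35.5 CPM. Tubb4b and Cks2 were also highest in erythroid-like cells in both, at 879 and 651 CPM in the knockout and 891 and 670 CPM in the control. The median span over the 37 genes was 1.39 times in the knockout and 1.45 times in the control.

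**Figure D3:**
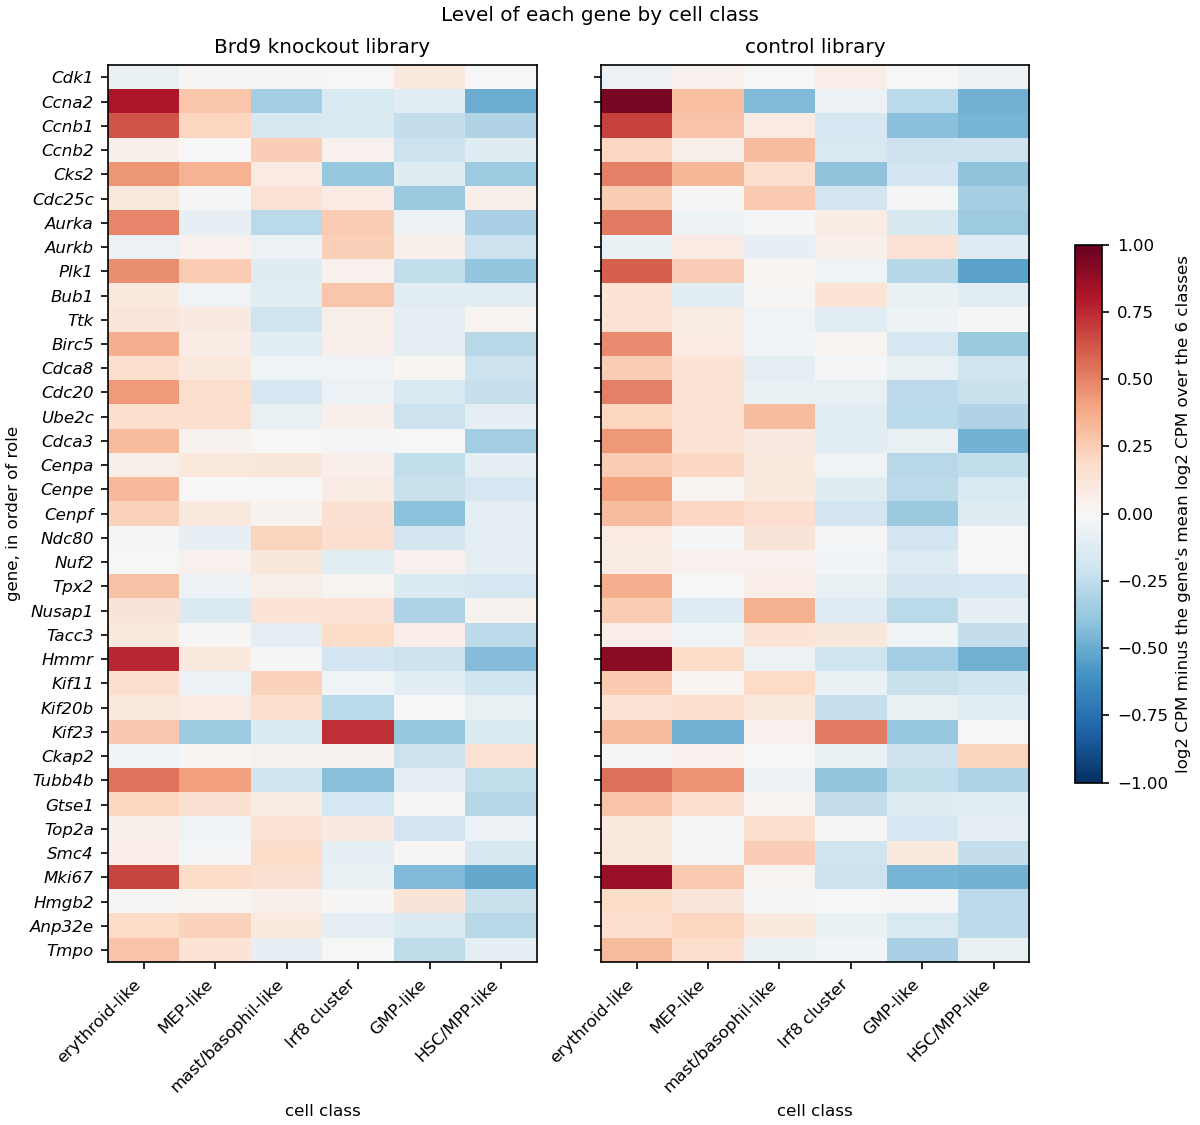
Level of each gene (y axis, in order of role) in each cell class (x axis) as log2 CPM minus the gene's own mean over the 6 classes, 1 panel per library, red above and blue below that mean. Ccna2, Hmmr and Mki67 have the darkest erythroid-like tiles, and Cdk1 is nearly white throughout.

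Erythroid-like cells were compared with HSC/MPP-like cells within each library. In the knockout, 35 of 37 genes were higher, against 52.9% of all genes with a mean of at least 20 CPM, and 22 were higher by at least 0.25 (log2), against 35.3%. In the control, 35 were higher, against 53.2%, and 29 by at least 0.25, against 35.8%. The summed level was 1.38 times as high in the knockout and 1.5 times in the control. Both cell classes have their own depth, a median of 39259 and 23142 UMIs per knockout cell and 41294.5 and 24657.5 per control cell. Only Cdk1 and Ckap2 lay below 0 in both libraries, at -0.064 and -0.17 in the knockout and -0.008 and -0.21 in the control. Leading genes were Ccna2 (1.30 and 1.42), Hmmr (1.19 and 1.38) and Mki67 (1.19 and 1.33). Top2a differed by 0.11 and 0.18 only.

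Erythroid-like cells were split into 3 groups of equal size over both libraries, low, middle and high, by the share of alpha-globin (Hba-a1 and Hba-a2) among their UMIs, which increases as red cells mature. The cuts lay at 0.038% and 0.232% of UMIs. The groups are ranges of 1 level and not cell types, and 136 knockout and 163 control cells lay within 10% of the lower cut, 146 and 188 of the upper one. The summed level was 8023 CPM in the low, 8693 CPM in the middle and 9910 CPM in the high group of the knockout. In the control it was 8362, 9018 and 10192 CPM. The median UMIs per cell went the other way, from 42566 to 34802.5 in the knockout and from 45423.5 to 35753 in the control.

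In the high against the low alpha-globin group, 36 of 37 genes were higher in the knockout, against 40.7% of all genes with a mean of at least 20 CPM, and 35 in the control, against 37.9%. By at least 0.25, 23 genes were higher in the knockout and 21 in the control, against 18.3% and 16.5%. Nusap1, which bundles spindle microtubules, had the largest ratio, 0.99 in the knockout and 1.01 in the control. Mki67 followed at 0.88 and 0.79, Kif23 at 0.82 and 0.89, Hmmr at 0.73 and 0.63, Kif11 at 0.70 and 0.63 and Top2a at 0.62 and 0.51. Kif11 is the motor that pushes spindle poles apart. Anp32e was lower in both libraries, at -0.078 and -0.081, and Cenpa differed in sign, at 0.010 and -0.040. Hmmr, Mki67 and Kif23 thus varied widely both over cell classes and along alpha-globin. Ccna2, the leading gene over classes, gave 0.32 and 0.27 here, and Nusap1 gave 0.092 and 0.34 between erythroid-like and HSC/MPP-like cells.

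Per cell, each cell was thinned to 18526 UMIs, which left out 367 knockout and 314 control cells that were shallower. The median cell then had 150 UMIs of the 37 genes in the knockout and 153 in the control, and held a UMI of 30 and 29 of the genes. Without thinning, the median share was 1.2% lower in the knockout. Erythroid-like cells had medians of 156 and 162 and HSC/MPP-like cells of 102 and 100, with 87 and 67, and 101 and 110, shallow cells left out. Spread within a class was the clearer difference. The lowest 5% of erythroid-like cells ended at 116 and 120 UMIs, whereas in HSC/MPP-like cells they ended at 48.2 and 39.0. The highest 5% began at 223 and 230 in erythroid-like and at 223 and 232 in HSC/MPP-like cells. The upper ends were therefore alike in the 2 classes and the lower ends were not. MEP-like cells had medians of 135 in both libraries, mast/basophil-like cells of 130 in both, GMP-like cells of 115 and 105 and the Irf8 cluster of 113 and 110.

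**Figure D4:**
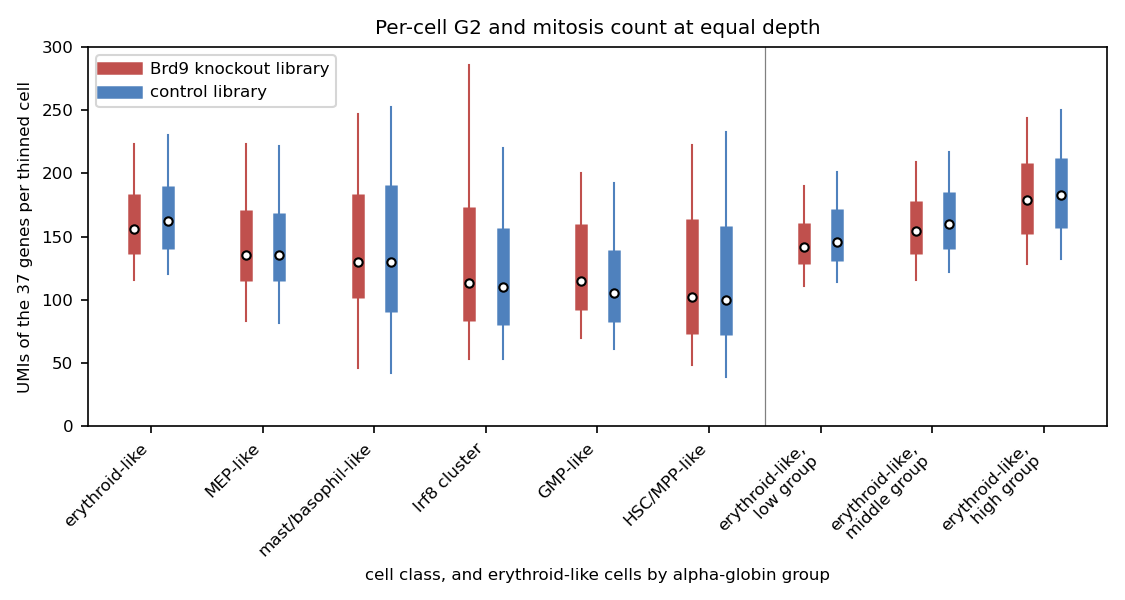
UMIs of the 37 genes per thinned cell (y axis) by cell class and alpha-globin group (x axis) for each library, with the median as a point, the middle 50% of cells as a thick bar and percentiles 5 to 95 as a thin line. Erythroid-like cells lack the low tail that HSC/MPP-like cells show, at 48.2 and 39.0 UMIs for percentile 5.

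Within erythroid-like cells, some of the genes moved together from cell to cell and others hardly did. For each gene, cells were ranked by the UMIs of the other 36 genes, and its mean in the top 20% of cells was divided by that in the bottom 20%, over 4306 knockout and 4459 control cells. Nusap1 had a mean of 3.61 UMIs in the top and 0.891 in the bottom 20% of the knockout, 4.05 times, and 3.67 and 0.852 in the control, 4.30 times. Cenpf was 3.86 and 3.87 times, Kif23 3.48 and 3.71 times and Aurka 3.39 and 3.48 times as high. Ube2c stood at 8.90 against 3.41 UMIs in the knockout, 2.61 times, and 9.78 against 2.94 in the control, 3.32 times. Cdk1, so even across classes, was 2.64 and 2.56 times as high, and Ccnb1 2.15 and 2.22 times.

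At the other end, Hmgb2 was 1.1 times as high in the knockout and 1.09 times in the control, Cenpa 1.12 and 1.14 times, Tubb4b 1.09 and 1.03 times, Tmpo 1.07 and 1.09 times and Anp32e 0.98 and 1.05 times. Ccna2, the gene with the widest range over classes, gave only 1.24 and 1.2 times. In both libraries, 17 of the 37 genes were at least 2 times as high. Among 3306 genes outside the list with at least 50 CPM in control erythroid-like cells, 1.48% were. With the top and bottom 20% taken within each alpha-globin group, Nusap1 gave 3.37 and 3.51 times. Mki67 then fell short of 2, at 1.74 and 1.88 times. The order of the genes by this measure was nearly the same in the 2 libraries (Spearman's rho 0.98 across 37 genes, which are not independent). Genes with the CHR letters in their window had a median of 1.78 times in the control (23 genes) and those without 1.54 times (9 genes), while 11 of those 23 and 4 of those 9 were at least 2 times as high in both libraries. Nusap1, at the top, held neither motif, and Hmgb2, near the bottom, held both.

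**Figure D5:**
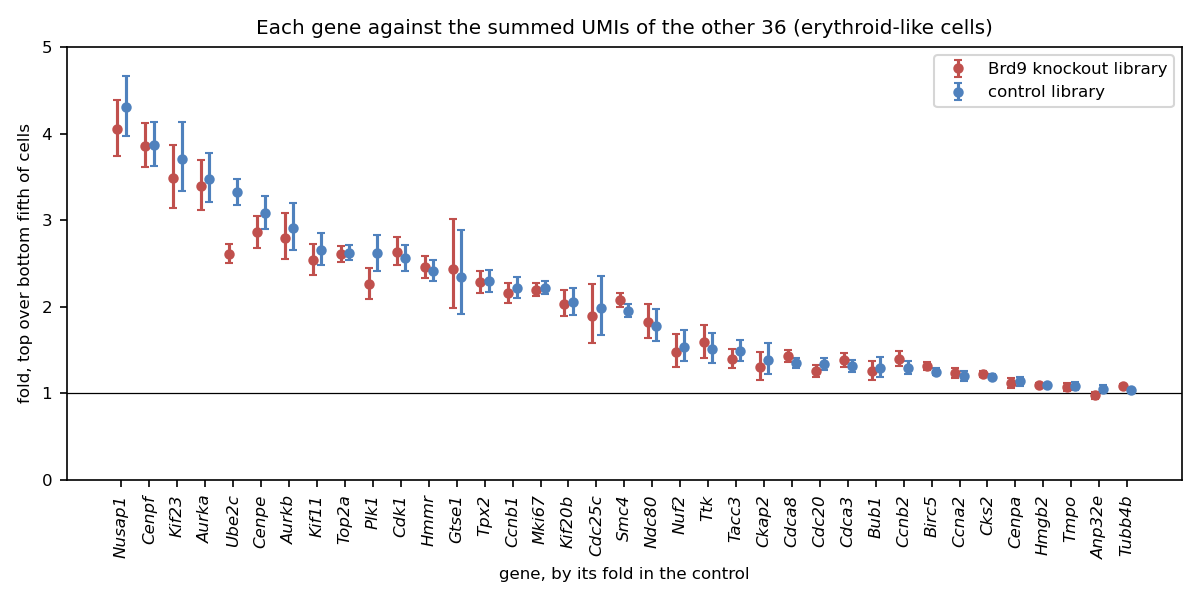
Mean UMIs in the top 20% over the bottom 20% of erythroid-like cells ranked by the other 36 genes (y axis), for each gene (x axis, ordered by the control value) and library, with 95% counting intervals as bars. Nusap1 and Cenpf lie near 4 times and Hmgb2, Tmpo, Anp32e and Tubb4b near 1.

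The count of these genes ran against that of S-phase genes within a maturation stage. In control cells of the low alpha-globin group, the bottom 20% of cells by these genes had a median of 119 UMIs of them and 123 UMIs of the 41 S-phase genes, and the top 20% 192 and 98.0. In the knockout the same group went from 117 and 122 to 179 and 96.0. In the high group of the control, S-phase UMIs were 144.5 in the bottom 20%, 122 in the 20% next to the top and 127 in the top 20%, and in the knockout 143.5, 120.5 and 126. Depth before thinning moved with it, from a median of 40349.5 UMIs in the bottom to 57956 in the top 20% of the control's low group. Its part in the pattern was not tested. S-phase level was also averaged over all erythroid-like cells, weighted by each gene and with no split by alpha-globin. Ube2c had the lowest value, at 0.94 of the average in both libraries, and Mki67 the highest, at 1.03 and 1.02. A gene at an even level over cells gives a value near 1. The summed S-phase level went from 5926 CPM in the low to 7049 CPM in the high group of the knockout. In the control it went from 6064 to 7187 CPM. Mki67 increased along the same groups, and the part of stage in its value was not tested. Tmpo, Nuf2 and Bub1 were the next highest 3 in the knockout at 1.01 to 1.02. Aurkb, Plk1 and Cdk1 followed Ube2c at the low end, at 0.96 in the knockout and 0.95 to 0.96 in the control.

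Genes outside the list were ranked by the Spearman correlation of their UMIs with the summed UMIs of the 37 genes over thinned control erythroid-like cells, which share a library. Prc1, which bundles central spindle microtubules, came first at 0.57 (0.56 in the knockout). Incenp, the scaffold of the passenger complex, gave 0.47 and 0.45, and Arl6ip1, an endoplasmic reticulum membrane protein, 0.42 and 0.42. Also among the first 10 were St6galnac3 (0.55 and 0.57), a sialyltransferase, Immp2l (0.47 and 0.46), a mitochondrial inner membrane peptidase, Sox6 (0.43 and 0.46), an erythroid transcription factor, Malat1 (0.41 and 0.47), a nuclear long noncoding RNA, Hba-a1 (0.39 and 0.45), and Slc25a21 (0.39 and 0.44), a mitochondrial carrier. These 9 genes ranked no lower than 10 in the knockout. Hba-a1 was also used to cut the groups, along which the 37 genes increased. The lowest 2 values were -0.37 for Hells, an S-phase chromatin remodeller, and -0.36 for Npm1, nucleophosmin of the nucleolus.

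Between genotypes, the classes differed in direction by small amounts. In erythroid-like cells the summed log2 ratio was -0.046 (-0.049 to -0.043), with 15 of 37 genes above 0, against 64.3% of all genes tested there. Hmgb2 alone was at 1696 against 1859 CPM in knockout and control there, a large part of the difference of the sums. In GMP-like cells it was 0.12 (0.10 to 0.13), with 31 above 0, against 54.1%. HSC/MPP-like cells gave 0.082 (0.066 to 0.098) with 29 above 0, against 58.3%, and the Irf8 cluster 0.098 (0.082 to 0.12) with 33, against 54.7%. MEP-like cells gave -0.004 (-0.012 to 0.004) with 20, against 56.7%, and mast/basophil-like cells 0.003 (-0.016 to 0.022) with 19, against 57.7%. Whether the classes differ was not tested, since there was 1 library per genotype.

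Few genes lay beyond 0.25. In erythroid-like and MEP-like cells 0 did, against 4.33% and 5.81% of all genes. In GMP-like cells Ccna2 (110 and 89.1 CPM in the knockout and control, 0.30) and Ccnb1 (102 and 82.9 CPM, 0.30) were higher by at least 0.25, against 5.81% of all genes. In HSC/MPP-like cells, 3 were, against 5.85%: Ccnb1 (97.9 and 80.5 CPM, 0.28), Plk1 (51.5 and 42.3 CPM, 0.29) and Cdc25c. Cdc25c, below the minimum of 20 CPM behind that share, was at 16.8 and 11.4 CPM over only 157 and 113 UMIs (0.56, 0.20 to 0.92). In the Irf8 cluster 8 genes were higher by at least 0.25, against 13.5%. They included Cenpf (147 and 112 CPM, 0.40), Ccnb2 (136 and 107 CPM, 0.35), Nusap1 (106 and 83.3 CPM, 0.35) and Mki67 (285 and 225 CPM, 0.34), with S-phase genes at a median of -0.044 in the same cells. In mast/basophil-like cells 3 lay beyond 0.25 in either direction, against 18.7%: Ube2c was lower (285 and 369 CPM, -0.37), Aurka lower (54.5 and 65.1 CPM, -0.26) and Mki67 higher (332 and 266 CPM, 0.32).

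Differences between sexes within 1 library can be set beside these for size. They leave out differences between libraries and so cannot gauge a ratio between genotypes. In the control, female over male cells gave a summed log2 ratio of 0.077 (0.056 to 0.099) in GMP-like cells, -0.17 (-0.20 to -0.14) in HSC/MPP-like cells, 0.095 (0.069 to 0.12) in the Irf8 cluster and -0.011 (-0.016 to -0.006) in erythroid-like cells. Those female cells numbered 95, 81, 70 and 1089. In the knockout the same ratios were 0.012 (-0.009 to 0.034), 0.002 (-0.022 to 0.025), 0.086 (0.058 to 0.11) and -0.010 (-0.015 to -0.005). By size alone, the ratio between genotypes exceeded that between sexes of either library in GMP-like and erythroid-like cells. It was close to both in the Irf8 cluster and smaller than that of the control in HSC/MPP-like cells. For MEP-like and mast/basophil-like cells, female over male gave 0.021 and -0.10 in the control and 0.042 and 0.005 in the knockout. The ratios between genotypes there, -0.004 and 0.003, were smaller in size. Between genotypes, female cells alone gave 0.056 in GMP-like and 0.23 in HSC/MPP-like cells, and male cells alone 0.12 and 0.062. The median gene of GMP-like cells was at 0.12 with all cells, 0.0091 in female and 0.067 in male cells. Erythroid-like cells gave -0.039 in female and -0.041 in male cells. The libraries also differed in sex mix, and its part in the values of the smaller classes was not tested.

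By alpha-globin group, 7 genes of the low group were above 0 in the knockout against the control, against 56.2% of all genes, 12 of the middle group, against 65.8%, and 19 of the high group, against 68.3%. The summed log2 ratios were -0.060 (-0.065 to -0.054), -0.053 (-0.058 to -0.048) and -0.040 (-0.046 to -0.035). Grouped by other erythroid genes instead of alpha-globin, the median ratios of the middle and high groups were both above 0, as given below. Alpha-globin differed between libraries within erythroid-like clusters, at 9561 against 6222 CPM in knockout and control in cluster 9. In cluster 15 it was at 303 and 321 CPM. The part of this difference in the ratios by group was not tested. Centromere and kinetochore genes were the group farthest from 0 in the low group, at a summed 505 against 559 CPM in knockout and control. Erythroid-like clusters were uneven between libraries. Cluster 1 held 661 knockout and 267 control cells, and cluster 11 held 53 and 520. Without both, the summed ratio was -0.046 (-0.049 to -0.042), with 13 genes above 0. Of the 15 erythroid-like clusters taken alone, 11 were below 0, from -0.094 in cluster 17 (8625 and 9202 CPM) to 0.037 in cluster 1 (8931 and 8706 CPM). Neither of these 2 clusters had a class marker among its top 10 genes.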

How the data were processed

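The authors deposited UMI counts per gene and barcode for 2 libraries of the 10x Genomics 3' kit, as whole numbers with no normalization per the file contents. Cell Ranger 7.2.0 and mm10 are named in the submitters' processing notes, and the treatment of intronic reads is not stated there. Libraries held 271350214 and 292972312 UMIs in 7289 knockout and 7399 control barcodes. Cells with at least 1000 genes, 2000 UMIs and at most 10% mitochondrial UMIs were kept (7001 and 7100). Scrublet in scanpy 1.11.5 marked 244 (3.49%) and 240 (3.38%) as doublets, which were removed. Cells with at least 3 Xist and at most 1 Y-linked UMI were called female. Cells with at most 1 Xist UMI were called male, with no Y-linked UMI required. Among kept cells, 140 and 92 held at least 3 UMIs of each kind.

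Leiden clustering at resolution 1 used 3000 variable genes, 30 components and 15 neighbours, without cell cycle, X- and Y-chromosome, mitochondrial or ribosomal protein genes or Brd9. Each of 24 clusters took the name, out of 17 lists of markers, that had most genes among its 30 leading genes by fold, or failing that the largest share of markers detected. Erythroid-like clusters 1, 2, 14, 15 and 17 had no marker of any class among their top 10 genes. Classes with at least 150 cells per library were compared. Counts were summed per library or class. Log2 ratios have conditional exact intervals and summed levels exact Poisson intervals, at 95%. The ratio and thinning steps were tested on simulated data. Genes were named as the 6 highest and 6 lowest ratios over the whole libraries, the highest level of each role, the farthest from 0 on each other list and the first 10 by correlation (1 of them is not reported here), while all 37 genes were accounted for. Genes named for their class levels, alpha-globin groups, per-cell rankings or class ratios were chosen after their values were seen. The 37 genes, the lists and the rules were chosen with earlier results of these data known. The rankings of cells, comparisons by sex within a library and the removal of uneven clusters were added after seeing the data. Gene identifiers matched the GENCODE M21 annotation in 32158 of 32285 cases.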

Additional observations from a re-analysis of the deposited data

Results flagged for a closer look

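Summed levels of the 37 genes went opposite ways between genotypes in different classes. The log2 ratio of knockout over control was -0.0457 in erythroid-like cells, 0.117 in GMP-like cells, 0.082 in HSC/MPP-like cells and 0.0984 in the Irf8 cluster. The difference between classes was not tested, as each genotype had 1 library.

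Cells that entered no comparison gave a ratio above 0 with a counting interval above 0 in 3 sets. It was 0.145 (0.115 to 0.175) in 82 knockout and 63 control megakaryocyte-like cells, at 8830 and 7985 CPM. In 46 and 134 neutrophil-like cells it was 0.130 (0.092 to 0.167), at 7153 and 6538 CPM. In 8 and 9 hepatocyte-like cells it was 0.165 (0.034 to 0.297), over 1071 and 854 UMIs of the 37 genes. None of these was compared with a replicate.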

How the results depend on the processing

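Ratios rest on 1 library per genotype, and no alternative replaces a replicate. No paired analysis was possible because each group has 1 library. Over whole libraries, the median log2 ratio of 0.00064 became -0.027 when centred on the median of all genes, where 15 genes were above 0, and with at least 100 CPM 9 of 24 genes were above 0 (59.0% of all genes at that level). The erythroid-like median of -0.018 became -0.045 when centred on the class, and the HSC/MPP-like median of 0.075 became 0.22 in female cells. With erythroid-like cells grouped by the summed level of other erythroid genes instead of alpha-globin, the middle group went from -0.034 to 0.019 and the high group from 0.003 to 0.065. The difference of per-cell medians, -1.96% in the knockout, became 0.16% with equal weight per gene. The causes were not tested. HSC/MPP-like medians were 0.018 with cell cycle genes kept in clustering, 0.023 with doublets kept and 0.036 at resolution 0.6. The Irf8 cluster gave 0.051 with doublets kept. The mast/basophil-like median of 0.004 was 0.14 in female cells and -0.047 at resolution 0.6, and the MEP-like median of 0.020 was -0.011 in male cells. GMP-like medians with other clusterings or doublets kept ran from 0.12 to 0.18. Single genes over whole libraries moved beyond their counting interval for 27 of 37 when centred, 12 in female cells, 17 in male cells and 3 with reweighted classes, and none of 37 reversed.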

Other observations

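For the 41 S-phase genes, the difference from the G2 and mitosis genes was not tested. In mast/basophil-like cells 35 of 41 were above 0 in the knockout against the control, 11 of them by at least 0.25, against 57.7% of all genes above 0 and 18.7% beyond 0.25 in either direction, with a median log2 ratio of 0.157 and summed levels of 4870 and 4358 CPM, whereas the median of the 37 G2 and mitosis genes there was 0.004. In the Irf8 cluster 13 of 41 were above 0, against 54.7% of all genes, with a median of -0.044, against 0.14 for the G2 and mitosis genes. In GMP-like and HSC/MPP-like cells both sets lay above 0, at S-phase medians of 0.076 and 0.061.

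Single genes outside the list also differed between the top and the bottom 20% of erythroid-like cells ranked by the 37 genes. Hbb-bs, a beta-globin, was 7.69 times as high in the knockout and 6.87 times in the control, Sox6 7.28 and 6.84 times, and Kel, a blood group antigen, 2.63 and 2.52 times. Aspm, a spindle pole protein, was 3.04 and 2.77 times and Kif18a, a chromosome alignment motor, 2.47 and 2.43 times as high. These genes were chosen after their values were seen. The ranking ran over all erythroid-like cells with no split by alpha-globin, along which the 37 genes increased. The part of maturation stage in these values was not tested.

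Barcodes marked as doublets had summed levels of 8479 and 8439 CPM, and barcodes left out by the cell filters 6195 and 6250 CPM, in the knockout and control.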
